A study of Homo sapiens with 58 samples.

Results

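Arrays of the HaCaT-p65 line in serum were compared with arrays of parental HaCaT in serum, 6 of the 58 arrays of the series. HaCaT is a spontaneously immortalized line of human keratinocytes. HaCaT-p65 was derived from it by forced expression of RELA/p65, a transcription factor subunit of NF-κB, while the parental HaCaT arrays carry no forced expression and no empty vector. Members were chosen by their titles: the 3 arrays of HaCaT-p65 and the 3 of HaCaT that were grown in serum with no ligand and no inhibitor, all labelled 0 h and all of 1 processing date. HaCaT-vector, the line with the empty vector, was used as a second reference, again with 3 serum arrays of that date. HaCaT-EGFR and HaCaT-HRAS, which carry forced EGFR and HRAS, gave 5 and 3 serum arrays and are used here only to place single genes. The labels do not say whether a line was 1 clone or a pool, or whether its 3 arrays came from separate cultures. The spread behind each p-value was pooled over the conditions of all 58 arrays, not only these 6, and may be technical. Effects of p65 cannot be told apart from those of the vector, of selection or of line history in this comparison, since parental HaCaT has none of these.

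NF-κB is a family of dimeric transcription factors held inactive in the cytoplasm by inhibitor proteins of the IκB group. Signals such as TNF-α lead to degradation of the inhibitor, after which dimers holding p65 enter the nucleus and induce chemokines, cytokines, survival genes and their own inhibitors. In epidermis, sustained NF-κB activity has been linked to altered growth and differentiation of keratinocytes. The labelled cell type was checked against markers. The keratinocyte list was bright in both lines: KRT14, a keratin of basal keratinocytes, read a mean of 12.83 in HaCaT-p65 and 13.33 in HaCaT (log2 level), and the summed linear level of the 8 measured keratinocyte markers ranged from 26707 to 29780 and from 30665 to 40719. Melanocyte, leukocyte and endothelial lists, with 9, 10 and 10 measured markers, had 0 past the test, and the highest of those genes was MITF at 7.07 and 7.17. Of 11 fibroblast markers, LUM was higher and DCN lower in HaCaT-p65, while COL1A1, COL1A2, COL3A1 and PDGFRA differed by 0.02 to 0.14 in size on the log2 scale. The summed fibroblast level, led by LUM, was 1371 to 1436 in HaCaT-p65 and 382 to 1029 in HaCaT, and its part in the results was not tested. Fewer cells of a type and less RNA per cell cannot be told apart in such bulk samples.

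The HaCaT array with replicate number 2 stood apart from the other HaCaT arrays. Its mean correlation over all genes was 0.981 with the HaCaT-p65 arrays and 0.980 with the other HaCaT arrays, the only one of the 6 arrays closer to the other line than to its own. To place the HaCaT arrays without using them for the choice, 71 genes were taken at which all HaCaT-p65 serum arrays lay outside the range of the HaCaT-vector, HaCaT-EGFR and HaCaT-HRAS serum arrays with a mean difference of at least 2 on the log2 scale. HaCaT array 2 lay nearer to the HaCaT-p65 mean than to the mean of those 3 lines at 37 of the 71 genes, against 5 for array 1 and 9 for array 3. The shift was not uniform. HLTF, a chromatin-remodelling helicase, read 4.65 in HaCaT array 2 and 4.18 to 4.34 in HaCaT-p65, against 9.01 and 8.54 in HaCaT arrays 1 and 3. CMPK2 and PROS1 (protein S) showed the same split, with PROS1, chosen after its values were seen, at 3.74 in array 2 and at 9.12 and 8.65 in arrays 1 and 3. By contrast the NF-κB target TNF read 4.64 in array 2, between the 4.60 and 4.76 of arrays 1 and 3, and ID4 and IP6K3 also stayed on the side of the other HaCaT arrays. Of the 37 genes at which array 2 lay nearer HaCaT-p65, 22 also passed the test in the same direction in starved HaCaT-p65 against starved HaCaT-vector. So did 21 of the other 34, with 0 and 1 in the opposite direction. Over all genes 2.34% were higher and 2.96% lower there. The 71 genes were chosen by a serum difference of HaCaT-p65 from HaCaT-vector and other lines, so these counts are no separate test. Results below rest on all 3 HaCaT arrays. Of the 115 genes that passed and were list members or named by the rule, 64 passed whichever single array was left out and 51 did not.

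**Figure D1:**
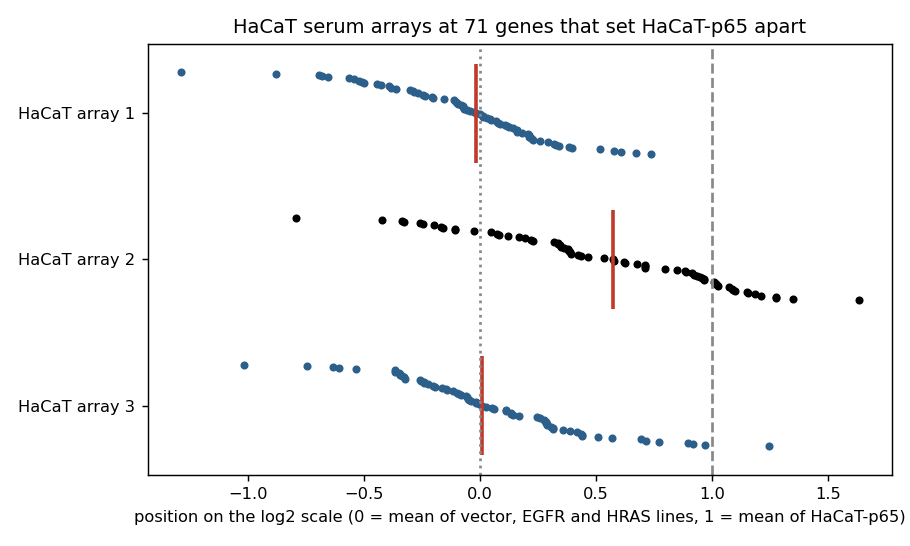
Position of each HaCaT serum array at the 71 genes that set HaCaT-p65 apart from the 3 other derived lines (x axis, log2 scale, 0 being the mean of the HaCaT-vector, HaCaT-EGFR and HaCaT-HRAS serum arrays and 1 the mean of HaCaT-p65). Each point is a gene, sorted within its array, with array 2 in black, and the red bar is the median, which was 0.57 for array 2, -0.02 for array 1 and 0.01 for array 3.

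RELA, the introduced gene, was measured by 2 probe sets. The brighter probe set read 10.13, 10.17 and 10.42 in HaCaT-p65 and 9.66, 10.21 and 9.90 in HaCaT, so the groups overlapped. The difference was 0.32 on the log2 scale (SE 0.12, adjusted p = 0.17 over all probe sets). The dimmer probe set read 6.58, 6.72 and 6.17 against 6.15, 6.32 and 6.26, a difference of 0.25 (SE 0.22, adjusted p = 0.72). Neither probe set passed the test, so the level of the introduced gene neither bears out nor goes against the label of the line. Without HaCaT array 2 the difference of the brighter probe set was 0.46 with an adjusted p of 0.027. The other subunits of the family, NFKB1, NFKB2, RELB and REL, did not pass either, with log2 differences of 0.37, 0.31, -0.01 and -0.38.

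Of 19775 genes tested, 1175 differed between HaCaT-p65 and HaCaT at an adjusted p under 0.05, which is 5.94% of all genes. They divided into 559 higher (2.83%) and 616 lower (3.12%) in HaCaT-p65. With each array centred on its median the split became 823 and 449, so 64.7% of the calls were higher in place of 47.6%, and the median of all genes moved from -0.002 to 0.088 on the log2 scale. A difference of at least 1 on the log2 scale was reached by 158 of the higher and 234 of the lower genes, and a difference of at least 2 by 34 and 53. A low level was not always above background: the leukocyte and endothelial marker lists, which had 0 members past the test, had array medians of 4.10 to 4.47, and where the lower group of a gene lay in or under that range only the difference of the deposited values is given, with no fold. The brightest endothelial marker reached a mean of 5.64 in HaCaT-p65 (CLDN5) and 5.57 in HaCaT (PECAM1). Folds given from a lower level than these, as for TNF, VGLL2 and FAT3, may therefore be ratios to background. Without HaCaT array 2 the counts of genes past the test rose to 714 higher and 782 lower, and 980 of the 1175 calls were among them. Against HaCaT-vector, which shares the HaCaT-p65 arrays with the comparison above, 3.99% of genes were higher and 3.19% lower in HaCaT-p65. HaCaT-vector itself was higher than HaCaT at 1.23% and lower at 1.64% of genes. Each list count of HaCaT-p65 against HaCaT below is to be read beside the shares of all genes, 2.83% higher and 3.12% lower.

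**Figure D2:**
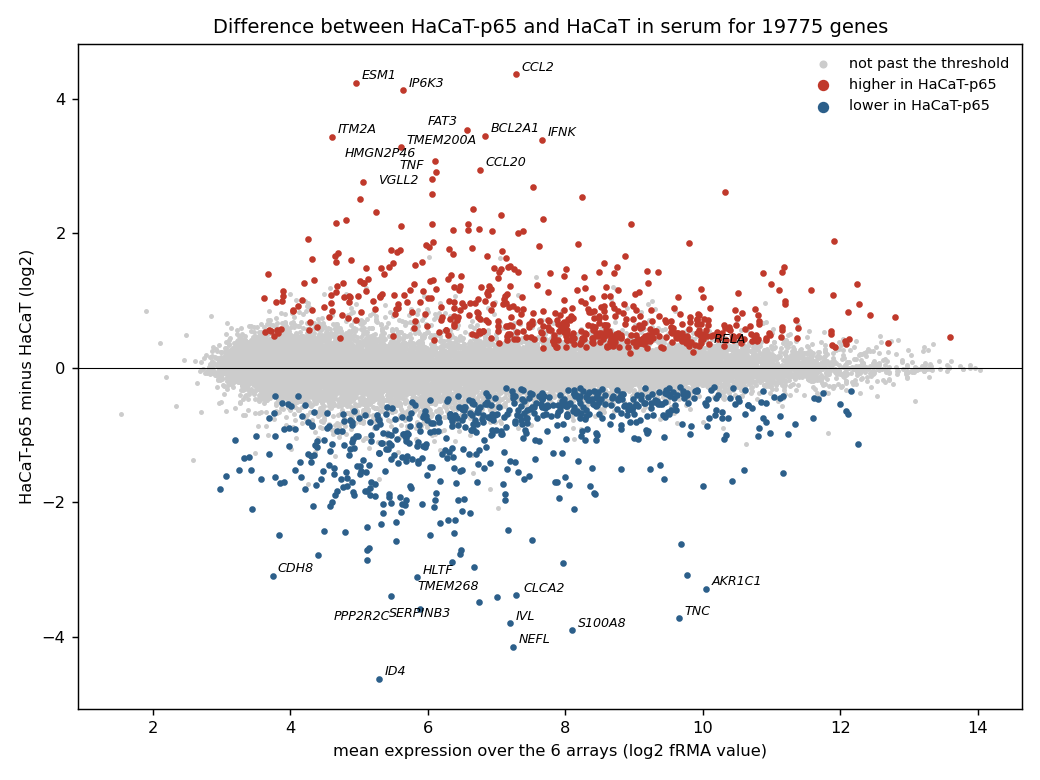
Difference between HaCaT-p65 and HaCaT (y axis, log2) against the mean expression over the 6 arrays (x axis, log2 fRMA value) for the 19775 genes, each gene a point. Red points were higher and blue points lower in HaCaT-p65 at an adjusted p under 0.05. CCL2 stands highest at 4.37 and ID4 lowest at -4.62, and RELA at 0.32 lies among the genes that did not pass.

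NF-κB dimers bind κB sites, and the promoter windows of 4 targets are shown because they carry letters of that kind. RefSeq windows of GRCh38.p14, running from 250 bases before to 50 bases after the gene start, were searched on both strands for GGNNTTTCC, where N is any base. The capitals mark the matches. The windows are chr2:227813592-227813891 on the plus strand for CCL20, chr19:10270870-10271169 on the plus strand for ICAM1, chr6:137867009-137867308 on the plus strand for TNFAIP3 and chr14:35404700-35404999 on the minus strand for NFKBIA. These 4 genes rose both in HaCaT-p65 and with TNF in HaCaT-vector.
CCL20: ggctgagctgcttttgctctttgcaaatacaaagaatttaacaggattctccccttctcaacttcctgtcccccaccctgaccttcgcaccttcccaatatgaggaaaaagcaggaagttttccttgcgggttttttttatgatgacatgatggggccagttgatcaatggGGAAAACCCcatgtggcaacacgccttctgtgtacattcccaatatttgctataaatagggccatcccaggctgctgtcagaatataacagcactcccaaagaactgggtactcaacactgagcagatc
ICAM1: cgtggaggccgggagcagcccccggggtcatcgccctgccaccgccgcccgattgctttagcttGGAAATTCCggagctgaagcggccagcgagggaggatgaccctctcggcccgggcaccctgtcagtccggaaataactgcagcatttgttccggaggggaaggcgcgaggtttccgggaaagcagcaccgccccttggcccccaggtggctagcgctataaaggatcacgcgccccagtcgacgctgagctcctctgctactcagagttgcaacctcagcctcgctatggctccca
TNFAIP3: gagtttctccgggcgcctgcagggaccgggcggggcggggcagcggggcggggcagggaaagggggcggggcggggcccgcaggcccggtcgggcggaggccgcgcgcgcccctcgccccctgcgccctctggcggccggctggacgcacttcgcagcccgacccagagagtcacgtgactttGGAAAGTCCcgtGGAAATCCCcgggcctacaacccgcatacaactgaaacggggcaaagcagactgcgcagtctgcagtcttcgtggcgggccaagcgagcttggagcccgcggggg
NFKBIA: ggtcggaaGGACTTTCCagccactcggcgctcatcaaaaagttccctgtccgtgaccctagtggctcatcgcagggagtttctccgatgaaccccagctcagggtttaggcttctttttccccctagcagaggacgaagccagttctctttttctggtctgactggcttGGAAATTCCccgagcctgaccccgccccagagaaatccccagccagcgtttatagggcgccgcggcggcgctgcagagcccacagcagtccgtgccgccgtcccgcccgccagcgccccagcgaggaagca
CCL20 and ICAM1 hold 1 match each and TNFAIP3 and NFKBIA 2 each. The letters stand in 6.47% of the 15384 measured genes with a window, in 11% of 456 genes higher and in 5.86% of 495 genes lower in HaCaT-p65. Among the listed NF-κB targets and inhibitors that rose, 11 of 20 with a window hold them, and among the listed ones that did not rise 8 of 24. A match is a description of the letters and not evidence of binding.

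Chemokines, which attract leukocytes, were the NF-κB target list with the largest median difference, 1.19 on the log2 scale against -0.002 over all genes. Of 13 measured members, 7 rose and 0 fell, where 2.83% of all genes rose. CCL2, the monocyte attractant, read 9.66, 9.61 and 9.14 in HaCaT-p65 and 6.30, 3.80 and 5.20 in HaCaT. All HaCaT-p65 arrays lay above all HaCaT arrays, and the level was 20.6-fold higher (log2 difference 4.37, SE 0.52, adjusted p = 1.4e-07). That difference was 3.72 without HaCaT array 2, which read lowest, and 4.97 without array 1. CCL20, the ligand of CCR6, read 8.08, 8.31 and 8.33 against 5.25, 5.45 and 5.18 and was 7.72-fold higher (SE 0.33 on the log2 scale, adjusted p = 2.9e-08), with little scatter in either line. CCL5, an attractant of T cells, read 7.32, 7.24 and 7.01 against 5.29, 5.72 and 5.25, a 3.42-fold difference. The neutrophil attractant CXCL3 read 9.45, 9.41 and 9.19 against 7.78, 8.46 and 7.10, a 2.96-fold difference. In HaCaT-HRAS serum arrays the means were 8.45 for CCL20 and 9.89 for CXCL3, above the HaCaT-p65 means of 8.24 and 9.35. CCL2, CCL5 and CXCL5 were lower there than in HaCaT-p65, at 8.20, 5.27 and 5.45. These differences between HaCaT-HRAS and HaCaT-p65 were not tested. CXCL5 was 4.16-fold higher (adjusted p = 0.0052), but its HaCaT arrays were spread over 3.80, 6.87 and 5.99, and its log2 difference of 2.05 was 1.18 without HaCaT array 1, where it did not pass, and 2.71 without array 2. Other CXCL5 probe sets differed by 0.79 and 0.22 and did not pass, nor did the CXCL5 difference of 1.05 between HaCaT-p65 and HaCaT-vector. CXCL2 and CXCL8 rose by 1.23 and 1.00 on the log2 scale, but CXCL8 passed in only 1 of the 6 fits with 1 array left out and CXCL2 did not pass without HaCaT-p65 array 2 or HaCaT array 3. CXCL10, CXCL11 and CXCL1 differed by 1.19, 1.10 and 0.83 and did not pass.

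Cytokines counted 5 of 14 measured members higher and 1 lower. TNF, the founding ligand of the TNF family and itself an activator of NF-κB, read 7.26, 7.97 and 7.49 in HaCaT-p65 and 4.60, 4.64 and 4.76 in HaCaT. The groups were separated by more than 2 log2 units, and the level was 7.49-fold higher (log2 difference 2.91, SE 0.27, adjusted p = 2.6e-10). LTB, which encodes lymphotoxin beta, read 7.93, 8.10 and 7.34 against 6.03, 5.85 and 5.26 and was higher by 2.07 on the log2 scale. IL6 was higher by 1.26 (adjusted p = 0.0015), with 1 HaCaT-p65 array at 4.82 below the highest HaCaT array at 5.02. TSLP and IL1B rose by 1.26 and 0.74. The count fell to 3 without HaCaT-p65 array 2 or without HaCaT array 1, and TSLP lost its call when any single array other than HaCaT-p65 array 3 was left out. IL1B did not pass without HaCaT-p65 array 2 or 3 or HaCaT array 1. IL36G, an IL-1 family cytokine of keratinocytes, moved the other way at 5.47, 5.77 and 5.07 against 7.83, 6.76 and 8.09, a 4.36-fold lower level (adjusted p = 6.3e-06).

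Survival and effector genes counted 8 of 17 higher and 0 lower, with a median of 0.77. BCL2A1, an anti-apoptotic BCL-2 family protein, read 8.30, 8.82 and 8.54 in HaCaT-p65 and 4.43, 6.26 and 4.63 in HaCaT. It was 10.9-fold higher (log2 difference 3.45, SE 0.51, adjusted p = 7.5e-06), and its log2 difference was 4.03 without HaCaT array 2. The adhesion molecule ICAM1 read 7.78, 7.93 and 8.13 against 6.21, 5.23 and 6.31, a 4.08-fold difference (adjusted p = 0.00012). Complement C3 was 2.66-fold higher, and VCAM1, another adhesion molecule, was higher by 0.96 on the log2 scale from a HaCaT level of 3.85 to 4.30. IRF1 and CFLAR rose by 0.87 and 0.53 and passed without any single array, whereas CFB, which rose by 0.77, passed in none of the fits with 1 array left out. LCN2, an antimicrobial iron-binding protein, rose by 1.17, but lost its call without HaCaT array 2 (log2 difference 0.72, adjusted p = 0.22) or without HaCaT-p65 array 1 or 3, and read 10.84 in HaCaT-vector, above the HaCaT-p65 mean of 10.55. SOD2 and PTGS2, both common NF-κB targets, differed by 0.01 and -0.20 and did not pass.

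Inhibitors of NF-κB that its own dimers induce counted 3 of 10 higher and 0 lower. TNFAIP3 (A20), an enzyme that edits ubiquitin on signalling proteins, read 11.52, 11.76 and 11.56 in HaCaT-p65 and 9.82, 10.99 and 10.29 in HaCaT, a 2.37-fold difference (SE 0.27, adjusted p = 0.0017). Its partner TNIP1 was 1.76-fold higher. NFKBIA, which encodes IκBα, read 8.28, 8.51 and 8.16 against 7.59, 7.76 and 7.24 and was 1.73-fold higher (adjusted p = 0.014). It did not pass without HaCaT-p65 array 2 or HaCaT array 3. In HaCaT-HRAS serum arrays its mean was 8.92, above the HaCaT-p65 mean of 8.32. TNFAIP3 and TNIP1 were lower there than in HaCaT-p65, at 10.62 and 10.76. Upstream, of 20 genes of TNF receptor and IKK signalling, IRAK2 was higher by 1.64 and the adaptor TRAF5 lower by 1.36, where 2.83% of all genes were higher and 3.12% lower. IRAK2, a kinase of IL-1 receptor signalling, read 4.86 in HaCaT array 2 and 7.27 and 6.81 in the others, and without array 2 its difference was 0.91 with an adjusted p of 0.077.

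**Figure D3:**
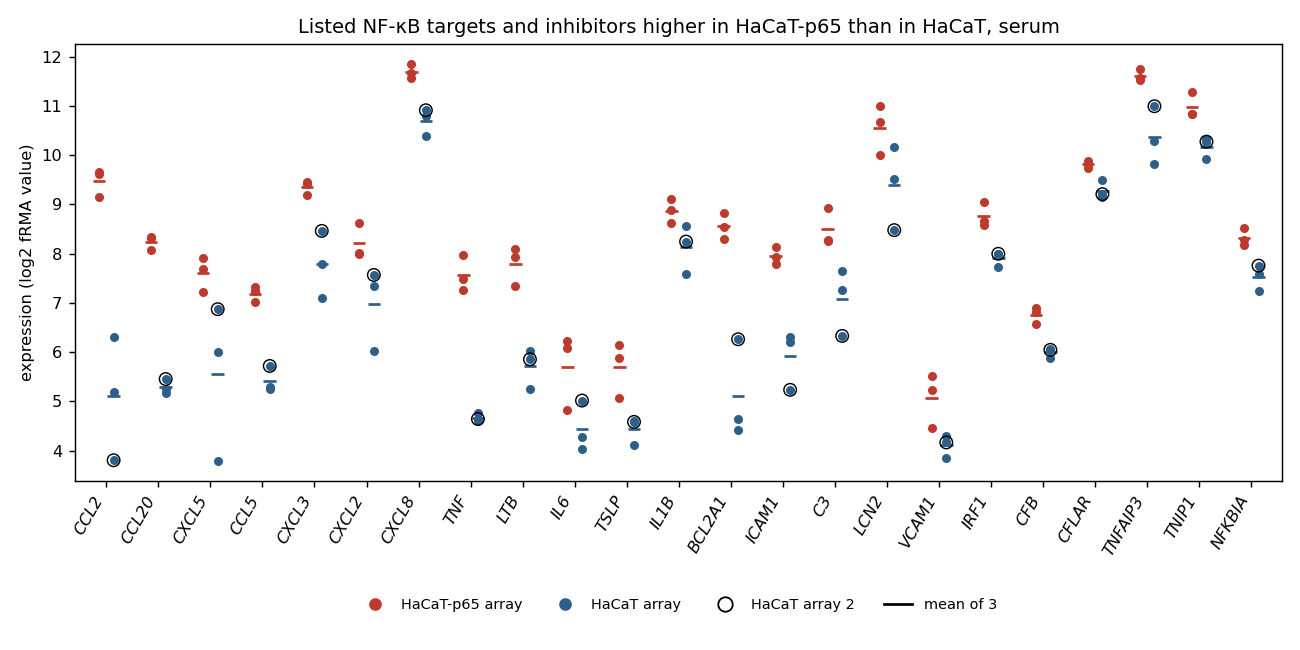
Expression (y axis, log2 fRMA value) of the listed NF-κB targets and inhibitors that were higher in HaCaT-p65, in each of the 3 HaCaT-p65 arrays (red) and the 3 HaCaT arrays (blue), with bars at the means and HaCaT array 2 circled. CCL20 and TNF show groups with little scatter, whereas CXCL5 and CCL2 vary by more than 2 log2 units among the HaCaT arrays.

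TNF given for 4 h to HaCaT-vector without serum, against the same line without TNF (3 and 4 arrays), provided a response measured on arrays that the comparison of HaCaT-p65 with HaCaT does not use. It raised 175 genes, 0.885% of those tested, and lowered 4, or 0.0202%. Of the 559 genes higher in HaCaT-p65, 58 were raised by TNF (10.4% of the 559 and 33.1% of the 175) and 0 were lowered. Of the 616 genes lower in HaCaT-p65, 4 were raised by TNF, namely IL36G, CMPK2, EDN1 and NLRC5, the last pair chosen after their values were seen. With TNF, CCL20 rose by 3.14, CCL2 by 4.34, the TNF transcript by 2.88, BCL2A1 by 2.61 and TNFAIP3 by 2.65. Of these, TNFAIP3 differed by 1.25 and BCL2A1 by 3.45 between HaCaT-p65 and HaCaT. IL6 and VCAM1, which were higher in HaCaT-p65, changed by 0.23 and 0.15 with TNF and did not pass. Of the 5 NF-κB subunits, RELB and NFKB1 rose by 1.09 and 1.01 with TNF, against differences of -0.01 and 0.37 in HaCaT-p65; whether the settings differ was not tested.

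Starved HaCaT-p65 against starved HaCaT-vector was the other comparison on separate arrays, with 3 and 4 arrays kept without serum and labelled 4 or 8 h. Those groups share no processing date and are joined only through the authors' earlier adjustment for date. The date term of the fit here moved no estimate, its largest coefficient being 1.2e-08. Of all genes, 2.34% were higher and 2.96% lower in HaCaT-p65. Of the 559 genes higher in serum, 107 were higher there as well (19.1% of these and 23.1% of the starved calls) and 17 were lower. Of the 616 lower genes, 170 were lower there (27.6% and 29.1%) and 4 were higher. Among the 13 chemokines CCL20 and CXCL3 were higher in starved HaCaT-p65, by 2.57 and 2.07, and CXCL6 was lower by 1.77, while CCL2 differed by 1.60 with an adjusted p of 0.22. Among the 14 cytokines IL6 was higher by 1.23, and IL36G and TNFSF10 were lower by 3.22 and 1.31. Of the survival and effector genes 0 of 17 passed there, and BCL2A1 differed by -0.57. Outside the NF-κB lists, IP6K3 differed by 4.41, VGLL2 by 4.90, ID4 by -4.12 and TMEM268 by -3.39 between the starved lines.

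Among the largest rises outside the NF-κB lists, ESM1 (endocan, a secreted proteoglycan) read 6.54, 7.35 and 7.36 in HaCaT-p65 and 2.56, 3.13 and 2.84 in HaCaT, under the background range, a log2 difference of 4.24 (adjusted p = 2.5e-08). IP6K3, an inositol hexakisphosphate kinase, read 7.30, 7.58 and 8.24 against 3.86, 3.39 and 3.49 and was higher by 4.13 (SE 0.16 on the log2 scale, adjusted p = 1e-21). It lay between 3.72 and 3.85 on average in HaCaT-vector, HaCaT-EGFR and HaCaT-HRAS, so its high level was seen in HaCaT-p65 alone among the serum lines. FAT3, an atypical cadherin, was 11.6-fold higher, and the transcriptional cofactor VGLL2 was 7.02-fold higher at 7.39, 7.58 and 7.45 against 4.32, 4.76 and 4.90. TMEM200A and HMGN2P46, a pseudogene transcript, were higher by 3.28 and 3.07 on the log2 scale, but their HaCaT-HRAS means of 7.77 and 9.33 exceeded those of HaCaT-p65. ITM2A was 3.44 log2 units higher than in HaCaT, at 6.33, 6.40 and 6.26 against 2.58, 3.59 and 2.51. HaCaT-vector was also 2.32 log2 units above HaCaT at this gene, which left 1.12 between HaCaT-p65 and HaCaT-vector. IFNK, the keratinocyte interferon kappa, read 8.92, 9.40 and 9.75 against 4.58, 7.91 and 5.42. Its 10.5-fold difference, 3.39 log2 units, was 4.36 without HaCaT array 2 and 2.69 without array 1.

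Of 24 measured differentiation genes of keratinocytes 7 were lower and 0 higher, where 3.12% of all genes were lower, and their median log2 difference was -0.57. Involucrin (IVL), a protein of the cornified envelope, read 6.25, 5.02 and 4.63 in HaCaT-p65 and 9.80, 7.81 and 9.67 in HaCaT. It was 13.9-fold lower (log2 difference -3.80, SE 0.58, adjusted p = 1.3e-05), with array 2 the lowest of the HaCaT arrays and a difference of -4.44 without it. The envelope precursor SPRR3 read 7.52, 7.86 and 7.09 against 9.70, 9.16 and 9.23 and was 3.66-fold lower (adjusted p = 1.5e-06). SPRR1A, SPRR2B and SPRR1B were 3.37-fold, 3.13-fold and 2.87-fold lower, though near-identical SPRR genes may share probes, and SPRR1B did not pass without HaCaT array 2 or HaCaT-p65 array 1. KRT13, a keratin of stratified mucosa, was 5.88-fold lower with wide scatter in both lines, at 7.74, 6.09 and 4.87 against 10.45, 7.62 and 8.31. Its log2 difference of -2.56 was -1.88 without HaCaT-p65 array 3 and -1.73 without HaCaT array 1, where it lost its call, -3.31 without HaCaT-p65 array 1 and -3.14 without HaCaT array 2. TGM1, the enzyme that cross-links envelope proteins, fell by 1.22, but did not pass without HaCaT array 1 or 2 or HaCaT-p65 array 2 or 3. KRT1 and KRT10, the suprabasal keratin pair, differed by -1.0 and -0.02 and did not pass; KRT1 read 8.41 in HaCaT array 1 and 6.15 and 5.14 in arrays 2 and 3. FLG differed by -0.08.

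S100 and antimicrobial genes counted 3 of 11 lower and 0 higher: S100A8, S100A7 and S100A4. S100A8, a subunit of calprotectin, read 6.19, 6.06 and 6.21 in HaCaT-p65 and 11.48, 10.47 and 8.22 in HaCaT. Its log2 difference was -3.91 (SE 0.75, adjusted p = 0.00046), and the HaCaT arrays alone spanned more than 3 log2 units, so the difference was -3.19 without HaCaT array 1 and -4.82 without array 3. S100A7 (psoriasin) was 7.47-fold lower at 6.49, 6.47 and 6.60 against 9.65, 8.66 and 9.96. S100A9, the partner of S100A8, differed by -0.55 and did not pass, and S100A4 did not pass without HaCaT array 1. Clade B serpins, which inhibit proteases, counted 4 of 8 lower: SERPINB3 by 3.49, SERPINB13 by 1.56, SERPINB7 by 0.56 and SERPINB5 by 0.54 on the log2 scale. This count was 2 without HaCaT-p65 array 1 or 3, without HaCaT array 1, or with centred arrays, SERPINB3 and SERPINB13 being the members that passed in each of these, and SERPINB5 passed only without HaCaT array 3 among the fits with 1 array left out, SERPINB7 only without HaCaT array 2 or HaCaT-p65 array 2. Of 8 kallikreins, the proteases of desquamation, KLK6 and KLK7 were lower by 1.18 and 0.77, but neither passed without HaCaT array 3, nor did KLK7 without HaCaT-p65 array 1 or 2. KRT16, a keratin of activated keratinocytes, was 3.83-fold lower, and KRT5, a basal keratin, 2.20-fold lower. The simple keratins moved the other way, 4 of the 6 measured stress and simple keratins being higher: KRT18 by 1.5, KRT19 by 0.86, KRT8 by 0.73 and KRT7 by 0.61. KRT19 and KRT7 did not pass without HaCaT array 2 or without HaCaT-p65 array 1, which left 2 of 6, nor did KRT19 without HaCaT-p65 array 2 or 3. Against HaCaT-vector 0 of these 6 keratins were higher and 1 was lower in HaCaT-p65, with a median log2 difference of 0.29. The median of HaCaT-vector against HaCaT was 0.35, with 0 of the 6 past the test.

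Notch pathway genes counted 3 of 15 lower. The receptor NOTCH3 read 3.88, 3.71 and 3.49 in HaCaT-p65 and 6.44, 6.05 and 7.15 in HaCaT, lower by 2.85 on the log2 scale (adjusted p = 1.5e-05) with the HaCaT-p65 level under the background range, and it was also lower by 2.93 in the starved lines. The fall in serum was not seen at another NOTCH3 probe set, which read a mean of 5.08 in HaCaT-p65 and 5.09 in HaCaT. LFNG, which glycosylates Notch receptors, and the ligand JAG2 were 2.41-fold and 1.44-fold lower, and JAG2 did not pass without HaCaT-p65 array 2 or HaCaT array 1. NOTCH1 differed by -0.42 and did not pass. ID genes, which encode inhibitors of basic helix-loop-helix factors and respond to TGF-β family signals, counted 3 members lower. ID4 read 3.42, 2.88 and 2.65 against 7.97, 6.52 and 8.33 (log2 difference -4.62, SE 0.32, adjusted p = 1.2e-13), with the HaCaT-p65 level under the background range. ID3 and ID1 were lower by 1.08 and 0.97, and neither passed without HaCaT-p65 array 3 or HaCaT array 1. With TGFBI, 4 of 15 listed TGF-β targets were lower and 1, the matrix protein LTBP2, was higher, with a difference of 0.68 without HaCaT array 1, where it did not pass. ID4 was the one of these 5 that passed without any single array, and the count of lower members was 2 without HaCaT-p65 array 2 or 3 or without HaCaT array 1 or 3, and 6 without HaCaT array 2.

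**Figure D4:**
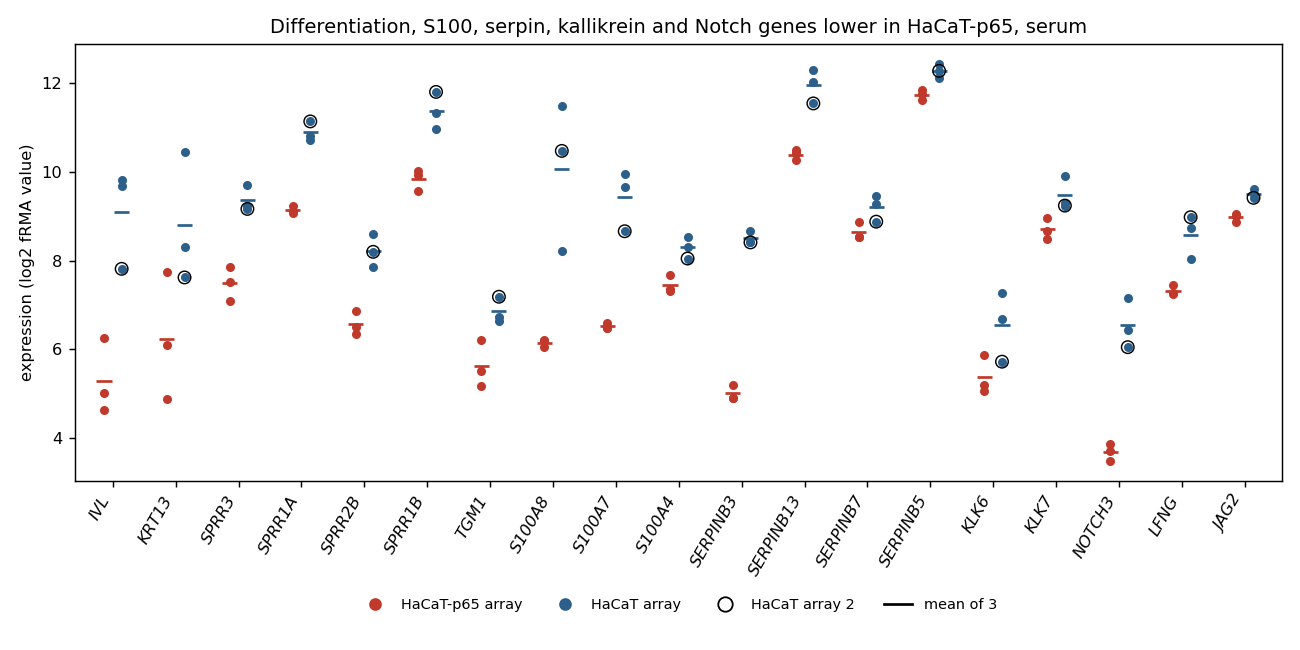
Expression (y axis, log2 fRMA value) of the listed differentiation, S100, serpin, kallikrein and Notch genes that were lower in HaCaT-p65, in each HaCaT-p65 array (red) and HaCaT array (blue), with bars at the means and HaCaT array 2 circled. SERPINB3 shows a wide gap between tight groups, and S100A8 spans 8.22 to 11.48 among the HaCaT arrays.

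Other large falls were of mixed kinds. NEFL, the light neurofilament, read 5.0, 5.74 and 4.78 in HaCaT-p65 and 10.16, 9.29 and 8.51 in HaCaT, a 17.7-fold difference (adjusted p = 2.4e-12). TNC (tenascin C), a matrix glycoprotein, read 7.98, 7.75 and 7.63 against 10.51, 12.90 and 11.12 and was 13.2-fold lower, with HaCaT array 2 the highest and so farther from HaCaT-p65 than the others, and a log2 difference of -3.03 without it in place of -3.72. TMEM268 and CLCA2 were 10.6-fold and 10.4-fold lower. PPP2R2C, a regulatory subunit of protein phosphatase 2A, and the cadherin CDH8 fell by 3.59 and 3.10 on the log2 scale to means under the background range, PPP2R2C by 4.54 without HaCaT array 2 and by 2.76 without array 3. The other PPP2R2C probe sets did not pass, with log2 differences of -0.37 to 0.39. HLTF had a log2 difference of -3.12 over all 3 HaCaT arrays, -4.49 without array 2 and -2.31 without array 1. Of 21 mesenchymal genes 1 rose, fibronectin (FN1) by 1.41, and 4 fell, TNC, SPARC, TWIST1 and S100A4, of which TWIST1 did not pass without HaCaT-p65 array 2 or HaCaT array 3. Another SPARC probe set differed by -0.27 and did not pass. Of 8 protease inhibitors and receptors 3 fell, TIMP3 by 2.89, PI3 (elafin) by 1.86 and SLPI by 1.5. Against HaCaT-vector 0 of the 8 were lower and 2 were higher in HaCaT-p65, and HaCaT-vector was itself below HaCaT at 4 of them. TIMP3 fell by 3.63 without HaCaT array 1 and by 2.19 without array 3, and PI3 did not pass without array 1 and fell by 2.54 without array 3. Secreted proteases were mixed: PLAU, the urokinase, was 3.61-fold higher at 10.51, 10.82 and 10.86 against 8.59, 9.55 and 8.51, MMP12 rose by 1.03 from a level under the background range and did not pass without HaCaT-p65 array 2 or 3 or HaCaT array 1, and MMP7 fell by 2.08. Targets of NRF2, which controls antioxidant genes, counted 5 of 14 lower. AKR1C1, an aldo-keto reductase, read 8.85, 8.20 and 8.17 against 12.74, 10.42 and 11.93 and was 9.78-fold lower, with the near-identical AKR1C2 at 8.49-fold. Their log2 differences of -3.29 and -3.09 were -3.93 and -3.68 without HaCaT array 2, and that of AKR1B10 was -2.03, -2.77 without array 2 and -1.21 without array 1, where it did not pass. AKR1C3 did not pass without HaCaT-p65 array 3 or HaCaT array 1, nor GCLC without HaCaT-p65 array 2 or 3 or HaCaT array 1 or 3. The other NRF2 targets that fell were AKR1B10, AKR1C3 and GCLC, and the count was 2 without HaCaT array 1 and 3 without HaCaT-p65 array 3.

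The values against the 2 reference lines differed at several of these genes. The comparisons with HaCaT and with HaCaT-vector share the HaCaT-p65 arrays, so each value is given beside the others. SERPINB3 was lower by 3.49 against HaCaT and differed by 0.07 from HaCaT-vector, which was itself 3.56 below HaCaT. AKR1C1 showed the same layout with 3.29 below HaCaT, -0.64 from HaCaT-vector and HaCaT-vector 2.65 below HaCaT. For the collagenase MMP1 the difference from HaCaT was -1.06 and did not pass, at 6.62, 7.49 and 8.65 against 8.70, 9.27 and 7.98, while HaCaT-p65 was 3.35 above HaCaT-vector (adjusted p = 4e-06), whose level was 4.42 below HaCaT. MMP10 followed at -0.89, or -0.17 without HaCaT array 2, and 1.97. The 2 references also differed at LUM (lumican, a small matrix proteoglycan), which read 9.96, 10.06 and 10.08 in HaCaT-p65 and 8.48, 9.38 and 5.82 in HaCaT. Its difference was 2.14 from HaCaT (adjusted p = 0.018), lost without HaCaT-p65 array 2 or 3 or HaCaT array 3, and 5.37 from HaCaT-vector. The difference from HaCaT was 2.88 without HaCaT array 2 and 1.10 without array 3. ASS1, the arginine-synthesis enzyme, did not pass against HaCaT (log2 difference -1.56, adjusted p = 0.074), with HaCaT array 2 at 4.85 and the others at 9.43 and 8.03. It was 4.86 below HaCaT-vector, and without array 2 it was 2.86 below HaCaT with an adjusted p of 6.6e-07. TNF, CCL20, IP6K3, FAT3, ID4 and TMEM268 passed against both references in the same direction, and HaCaT-vector did not differ from HaCaT past the threshold at any of these 6.

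Interferon-stimulated genes counted 6 of 32 higher, XAF1, MX1, OAS1, SAMD9L, RIGI and IFIH1, and 1 lower, CMPK2. XAF1 read 8.19, 8.61 and 8.78 against 6.37, 7.78 and 5.98 and was 3.51-fold higher. The count depended on single arrays: it was 12 without HaCaT array 2, 2 without HaCaT-p65 array 3 and 0 without HaCaT array 3. TNF in HaCaT-vector raised 16 of the 32, and in starved HaCaT-p65 against starved HaCaT-vector 0 were higher and 3 lower, RSAD2 by 3.35, HERC5 by 2.09 and CMPK2 by 4.49. CMPK2, a mitochondrial nucleotide kinase, had a log2 difference of -2.58 at 3.70, 4.39 and 4.66 against 8.26, 4.18 and 8.06, so 1 HaCaT array lay at the HaCaT-p65 level. The difference was -3.91 without that array, and -1.87 and -1.97 without HaCaT arrays 1 and 3. Of 11 IL-1 family members and receptors 4 rose, IL1R2, IL18R1, IL1RL1 and IL1R1, and 2 fell, IL1RAP by 1.39 and IL18 by 0.48. The fall of IL1RAP was not seen at another probe set of the gene, which read a mean of 7.84 against 7.86. The decoy receptor IL1R2 was 4.66-fold higher at 8.77, 9.23 and 8.37 against 5.44, 8.16 and 6.12, with a log2 difference of 2.22 that was 3.01 without HaCaT array 2. IL18R1 did not pass without HaCaT array 3, IL1RL1 without HaCaT-p65 array 2 or 3 or HaCaT array 1, and IL18 without HaCaT-p65 array 3 or HaCaT array 3. Of 5 EGFR ligands EREG and TGFA rose 2.41-fold and 2.09-fold, and HBEGF differed by 0.89 with an adjusted p of 0.062. Without HaCaT array 2 HBEGF was higher by 1.33 (adjusted p = 0.0017), which made 3 of 5. EREG read 9.89, 9.87 and 9.74 against 8.16, 9.22 and 8.32, above all HaCaT arrays. Of 22 genes induced by MAP kinase, ETV5 and DUSP5 rose by 1.43 and 0.77, but neither passed without HaCaT-p65 array 2 or 3 or HaCaT array 1, nor DUSP5 without HaCaT array 3. Without HaCaT array 2, 4 of the 22 were higher and 1 lower. Complement, hypoxia, arginine metabolism and mitosis lists, with 11, 16, 11 and 22 measured genes, had 0 members past the test; without HaCaT array 2, 1 arginine gene was lower and 1 mitosis gene higher. The G1/S list had 1 of 24, CCND1, which was higher by 0.56. Of 12 STAT3 and IL-6 family genes, IL6ST, BCL6 and JAK2 rose by 0.42 to 0.73, a count that was 0 without HaCaT array 1 and 1 without HaCaT array 2 or without HaCaT-p65 array 2 or 3. The other IL6ST probe sets did not pass, the brightest of them with means of 8.08 against 7.85. Of 13 basal keratinocyte and hemidesmosome genes, LAMB3 and CD44 rose by 1.08 and 0.78 and KRT5 fell, and LAMB3 did not pass without HaCaT array 1. Where a list has 1 or 2 calls these are given as single genes, since 2.83% of all genes were higher and 3.12% lower. Among 24 junction genes GJB6 and DSC3 fell by 1.70 and 0.69, and DSC3 did not pass without HaCaT array 2 (adjusted p = 0.076) or HaCaT-p65 array 1 or 3. Among 16 matrix proteoglycans LUM was higher and DCN lower, DCN passing only without HaCaT array 2 or 3 among the fits with 1 array left out. Single members rose in the lists of amino acid and stress response (ASNS by 1.16), cholesterol synthesis (SQLE by 0.52) and class I presentation (GBP3 by 0.67). ASNS did not pass without HaCaT-p65 array 1 or HaCaT array 1, SQLE without HaCaT-p65 array 3, and GBP3 without HaCaT-p65 array 2 or 3 or HaCaT array 1 or 3.

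**Figure D5:**
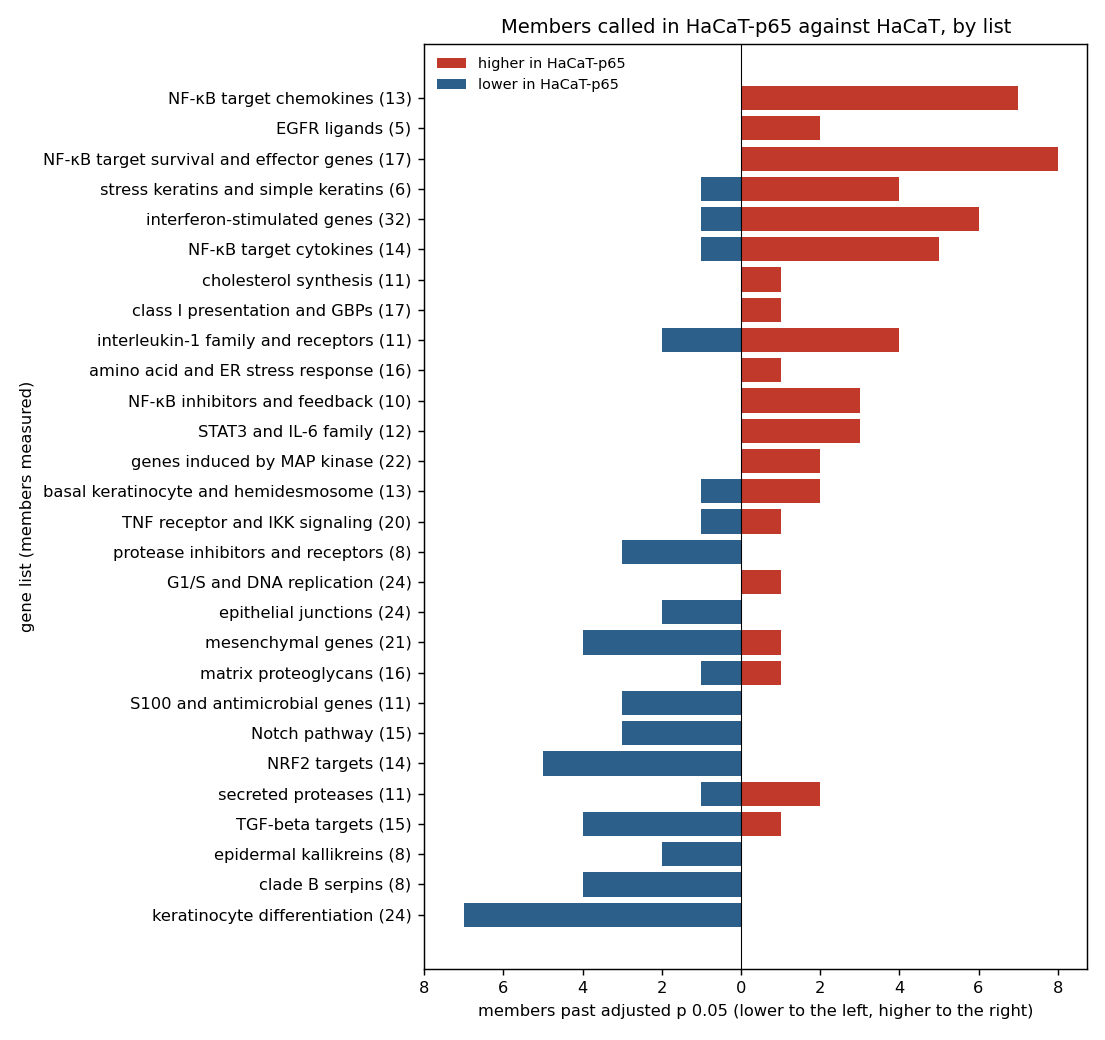
Number of members of each gene list past an adjusted p of 0.05 (x axis, higher in HaCaT-p65 to the right in red, lower to the left in blue), with the number of measured members in parentheses and the lists ordered by their median log2 difference. Chemokines stand at the top with 7 of 13 higher and keratinocyte differentiation at the bottom with 7 of 24 lower, and lists with 0 members called and the cell type marker lists are left out.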

How the data were processed

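Total RNA of HaCaT lines was hybridized to Affymetrix U133 Plus 2.0 arrays, 58 in all. The deposited values are log2 expression values that the authors made by fRMA and adjusted for processing date with limma by subtracting the fitted date coefficients. Signal and depth per array are not part of these values, and precision is limited by the number of arrays. Of 54675 probe sets, 41097 carried 1 gene symbol in the platform annotation, 1801 several and 11777 none, and 41043 were matched by Entrez ID to the GRCh38.p14 gene table, which updated 0 symbols. Each of 19775 genes was represented by its brightest probe set, judged by the average of the 58 arrays.

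limma 3.58.1 in R 4.3.3 was fitted to all 58 arrays with 18 conditions (times pooled) and 6 processing dates, leaving 35 residual degrees of freedom. Moderated p-values (eBayes) were adjusted for all genes tested by the Benjamini-Hochberg method, and an adjusted p under 0.05 was a call. On simulated data for HaCaT-p65 against HaCaT over 19775 genes, 34%, 76%, 96% and 100% of genes changed by 0.5, 1, 1.5 and 2 on the log2 scale were recovered, with 4.97% false among the calls. The simulated noise was normal, independent between genes and of 1 spread per gene in all arrays. It holds no array that stands apart and no wider spread in HaCaT, so these shares may not carry over to the real arrays.

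Named genes were the 12 largest rises and 12 largest falls that passed without overlap of the groups, the RELA probe sets, and up to 5 members of each of 38 gene lists, called members first in order of size. Other listed members are named where a count is broken down. The members and lists were chosen with earlier results of these data known. Folds are 2 to the power of the log2 difference. Alternatives were each array left out, the 15 serum arrays of 1 date with and without a replicate block, the 6 arrays alone, no date term, centred arrays, another moderation, the mean of all probe sets, genes with a mean above 6 only and a minimum log2 difference of 1. Promoter windows came from RefSeq.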

Additional observations from a re-analysis of the deposited data

Results flagged for a closer look

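At 4 genes HaCaT-p65 and HaCaT-vector lay on opposite sides of HaCaT, each past the threshold. The genes were chosen by that pattern, which fixes the difference between the lines, so this difference is given as a value with no test, and both comparisons use the same 3 HaCaT arrays. IL36G was 2.12 log2 units below HaCaT in HaCaT-p65 and 1.55 above it in HaCaT-vector, a difference between the lines of -3.68. LUM was 2.14 above and 3.23 below HaCaT, a difference of 5.37. LTBP2 was 1.34 above and 1.25 below, a difference of 2.59. KLK7 was 0.77 below and 0.82 above, a difference of -1.59. The HaCaT-p65 call of IL36G passed without any single array. That of LUM was lost without HaCaT-p65 array 2 or 3 or HaCaT array 3, that of LTBP2 without HaCaT array 1, and that of KLK7 without HaCaT-p65 array 1 or 2 or HaCaT array 3.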

How the results depend on the processing

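No named gene with a call reversed its direction under any alternative run. Counts were compared by size only, so a reversal was not scored for them. The balance of 559 higher and 616 lower genes turned to 823 and 449 with centred arrays and to 547 and 504 without HaCaT array 3. Leaving out 1 array at a time gave 385 to 714 higher and 427 to 782 lower genes. With the 6 arrays alone, a fit with fewer samples to estimate the spread, the counts were 67 higher and 70 lower. The compared groups also had a wider spread than HaCaT-vector in serum. The median SD over genes was 0.21 in HaCaT and 0.17 in HaCaT-p65, against 0.13 in HaCaT-vector. The part of each in the lower counts was not tested. The 15 serum arrays of 1 date gave 339 higher, and a log2 difference of at least 1 gave 158 higher and 234 lower. Of 104 named genes that passed, 32 kept their call with the 6 arrays alone, 76 with the 15 serum arrays, 100 with centred arrays and 78 to 94 with 1 array left out.

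With the 6 arrays alone the list counts were 4 chemokines, 2 cytokines, 2 survival genes, 0 IL-1 genes, 0 interferon-stimulated genes and 1 simple keratin higher, and 0 NRF2 targets, 1 TGF-β target, 2 serpins and 1 mesenchymal gene lower. The 15 serum arrays gave 2 cytokines and 2 TGF-β targets. Genes with a mean above 6 gave 3 cytokines and 10 interferon-stimulated genes, no date term gave 10 interferon-stimulated genes, centring gave 2 serpins and the mean of all probe sets 2 keratins. With 1 array left out, counts ranged over 3 to 5 cytokines, 2 to 6 NRF2 targets, 2 to 6 TGF-β targets, 2 to 4 serpins, 0 to 12 interferon-stimulated genes and 2 to 4 keratins, and the difference of the brighter RELA probe set over 0.19 to 0.46. Except where a value above or the construction of the alternative shows it, the cause was not tested.

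Replicate numbers were not treated as pairs in the main fit. Deviations of same-numbered arrays correlated by 0.35, -0.02 and 0.51, and those of differently numbered arrays by -0.49 to 0.22. Whether a replicate number marks a shared step was not tested. With the replicate block, 533 genes were higher and 647 lower, 854 of them shared with the 1175, and the lists held 3 cytokines and 10 interferon-stimulated genes.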
